A study of Mus musculus with 12 samples.

Results

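The 10 genes described here build, release and sense acetylcholine in the striatum: Chat, Slc5a7, Slc18a3, Ache, the muscarinic receptor genes Chrm1, Chrm2, Chrm3 and Chrm4, the transcription factor gene Lhx8 and the nicotinic receptor subunit gene Chrnb2. They were taken by gene symbol, and all 10 were found among the 57132 features of the count table. Striatal RNA of C57Bl/6 mice lacking trace amine-associated receptor 5 (TAAR5-KO) was compared with that of their WT littermates, 6 mice per genotype, all 10 months old and with no treatment named. The striatum was what remained of a coronal slice in front of Bregma once its cortex had been taken off. Ribosomal RNA was depleted before directional libraries were sequenced. Mice of both sexes were used in the study, but the count columns, numbered NK1 to NK6 (TAAR5-KO) and NK7 to NK12 (WT), are not tied to a sex or an animal. The targeted gene, Taar5, had 2, 3, 2, 1, 2 and 6 counts in NK1 to NK6, labelled TAAR5-KO. It had 0, 1, 0, 0, 2 and 0 counts in NK7 to NK12, labelled WT. The direction of these counts is opposite to the labels. They are few, and what RNA the altered gene still makes is not given in the sources used here. These counts therefore do not decide whether the labels are right, which was not tested. Libraries are therefore called by their labels throughout, and every direction below follows them.

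Cholinergic interneurons are a small class of large, tonically active neurons and the main source of acetylcholine within the striatum. Choline acetyltransferase makes acetylcholine, a vesicular transporter loads it for release, acetylcholinesterase breaks it down in the cleft, and a high-affinity transporter returns the choline. The released transmitter acts on muscarinic receptors, of which one subgroup couples to Gq proteins and the other to Gi and Go proteins, and on nicotinic channels. Whether the loss of TAAR5 goes with an altered level of these genes is the question that the comparison addresses. In bulk tissue, fewer cells of a type and less RNA per cell cannot be told apart. Which cells, or which region of the slice, a count came from was not measured.

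Total counts ran from 11.3 to 34.8 M per library, of which ribosomal RNA features took 64.3% to 88.1%, so 1.82 to 6.40 M counts were left for all other genes. Levels are given as CPM, the counts in each M of library size after scaling by the trimmed mean of M-values (TMM), whose factors ran from 0.375 to 2.46. The floor of 3 counts lay between 0.0678 and 0.361 CPM, which covers counting error only. No 2 libraries with the same label looked like 1 library deposited again, since chi-square over degrees of freedom was at least 3.52 in each of the 30 pairs.

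None of the 10 genes passed the test between the labels. With edgeR's likelihood ratio test and a Benjamini–Hochberg adjusted p under 0.1, 0 of 10 were called, against 229 of the 13902 features tested (1.65%; 0.957% were higher and 0.691% lower in the libraries labelled TAAR5-KO). With the quasi-likelihood test the calls were 0 of 10 and 0.453% of all features, and with DESeq2 0 of 10 and 1.27%. DESeq2 gave no adjusted p for 4 of the 10, Chat, Slc18a3, Chrm4 and Lhx8, so it could not call them. At an unadjusted p under 0.05, 1 of the 10, Slc18a3, passed in the likelihood ratio test, 1 in the quasi-likelihood test and 1 with DESeq2, while 11.9%, 12% and 9.73% of all features did. In all 10 genes the values of the labels overlapped, as they did in all but 1.01% of the features tested (0.388% lay apart with the label TAAR5-KO lower). The log2 fold change, given throughout as TAAR5-KO over WT by label, was above 0 in 4 genes and below 0 in 6, and it was below 0 in 51.1% of all features. Its median over the 10 genes was −0.035, beside −0.0059 over all features tested, and it lay between −0.10 (without NK1) and 0.018 (without NK7) when each library was left out. All 10 genes passed the filter of at least 0.5 CPM, on total counts, in at least 3 libraries. Slc18a3 reached that level in NK5, NK7, NK8 and NK12, of which only NK5 carried the label TAAR5-KO, and it did not pass the same filter on TMM sizes.

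**Figure D1:**
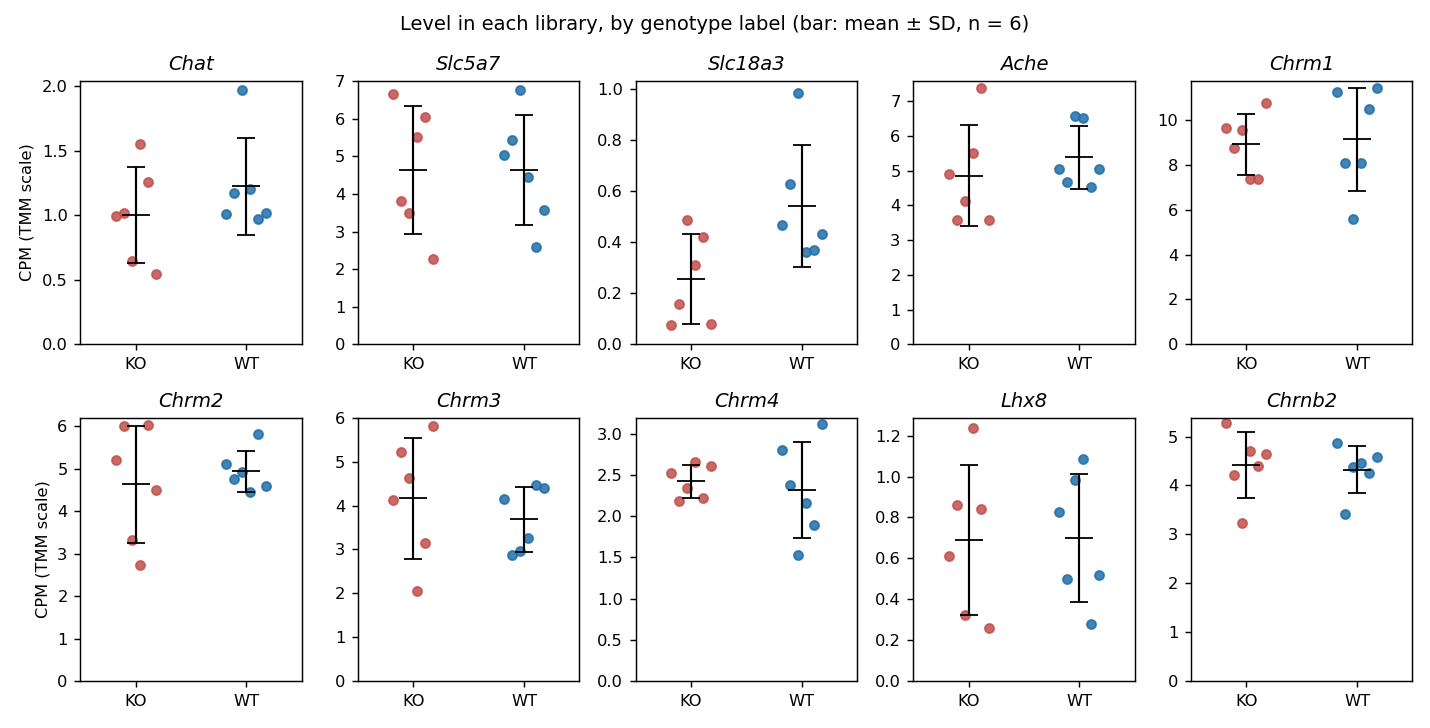
Level of each of the 10 genes in CPM on the TMM scale (vertical axis, from 0, a separate scale for each gene) in the 6 libraries labelled TAAR5-KO (red, KO) and the 6 labelled WT (blue). Each point is a library and the bars are the mean ± SD. The labels overlap in every gene, and the least so in Slc18a3, where 0.486 CPM is the highest value with the label TAAR5-KO and 0.361 CPM the lowest with the label WT.

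Chat encodes choline acetyltransferase, the enzyme that defines a cholinergic neuron. Its level was 0.548, 1.01 and 1.55 CPM (lowest, median and highest) in the 6 libraries labelled TAAR5-KO and 0.969, 1.09 and 1.97 CPM in the 6 labelled WT. The lowest 2 values, in NK6 and NK3, carried the label TAAR5-KO, and the highest, in NK9, carried the label WT. The means were 1.00 ± 0.373 and 1.22 ± 0.377 CPM (SD, n = 6 each), with 8 to 45 counts per library. The log2 fold change was −0.23 (SE 0.26, 95% interval −0.75 to 0.28, adjusted p = 0.790), within the spread between libraries. Without NK9 it was −0.097 and without NK6 −0.016.

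Slc18a3, the gene of the vesicular acetylcholine transporter, showed the largest difference of the 10 in size, although it did not pass the test. Its level was 0.0766, 0.233 and 0.486 CPM in libraries labelled TAAR5-KO and 0.361, 0.449 and 0.984 CPM in those labelled WT. Of the libraries labelled TAAR5-KO, 4 lay below every library labelled WT, while NK3 and NK5 lay among them. The means were 0.254 ± 0.177 and 0.540 ± 0.238 CPM (SD, n = 6 each), and the log2 fold change was −1.07 (SE 0.41, 95% interval −1.87 to −0.27, adjusted p = 0.194; adjusted p = 0.302 with the quasi-likelihood test). The counts behind these values were few, from 1 to 19 per library, with NK1, NK2, NK6 and NK10 at or under 3. Leaving out 1 library at a time moved the log2 fold change between −1.38 and −0.72, and only without NK5 was the gene called (adjusted p = 0.0730). Over all alternatives that gave the gene an adjusted p, which DESeq2 did not, it lay between 0.0730 and 0.700.

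Slc18a3 is nested in Chat. On GRCm39 its single exon spans chr14:32184395-32186807 on the minus strand, inside intron 1 of Chat (chr14:32130160-32187946, minus strand), and the 2 genes share 0 exonic bases. As both lie on the same strand, reads of unspliced Chat RNA over that intron would be counted for Slc18a3. Their part in its few counts, and so in its ratio to Chat, was not tested. Their starts, as given by the count table, lie 1139 bases apart, and where transcription begins was not measured. Both start regions, from 250 bases before to 50 bases after the start given by the count table, are shown 5′ to 3′ on the minus strand of GRCm39, because Slc18a3 has the largest difference of the 10 genes and Chat is the gene around it. The Chat window is chr14:32187897-32188196 and the Slc18a3 window is chr14:32186758-32187057. Capitals mark the motif CACGTG.
Chat: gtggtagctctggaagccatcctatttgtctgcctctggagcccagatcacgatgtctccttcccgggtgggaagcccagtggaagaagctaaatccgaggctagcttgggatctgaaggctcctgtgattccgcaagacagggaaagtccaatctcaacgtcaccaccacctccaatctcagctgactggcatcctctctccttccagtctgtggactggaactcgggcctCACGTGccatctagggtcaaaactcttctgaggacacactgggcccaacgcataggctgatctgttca
Slc18a3: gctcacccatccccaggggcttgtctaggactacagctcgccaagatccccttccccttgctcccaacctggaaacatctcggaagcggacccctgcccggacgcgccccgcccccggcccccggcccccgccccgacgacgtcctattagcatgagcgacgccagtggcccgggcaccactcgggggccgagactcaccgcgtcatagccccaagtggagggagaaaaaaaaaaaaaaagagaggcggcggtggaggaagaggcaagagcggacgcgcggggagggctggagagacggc

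The 2 start regions differed in composition. G and C made up 55% of the Chat window, which held 8 CpG dinucleotides, and 67% of the Slc18a3 window, which held 27. CACGTG and 2 other motifs were searched on both strands in the windows of all 10 genes and of 21691 genes in all. Each window rests on the first counted base, which for Chrm4 is where its coding sequence begins. The windows of Slc5a7, Slc18a3, Chrm2 and Chrnb2 were the same as those from RefSeq. Those of Chat, Ache, Chrm3, Chrm4 and Lhx8 were not, and Chrm1 had none to compare. CACGTG was in the window of Chat, 18 bases before the start, in that of Chrm1, 82 bases before the start, and in 7.72% of all windows. The motif TAATTA, in 5.32% of all windows, was in 0 of these 10. The same held for TGACGTCA, which was in 2.47% of all windows.

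Because a ratio of 2 genes within a library does not depend on the scaling between libraries, Slc18a3 was also set against Chat. Counts of Slc18a3 were 0.0769 to 0.750 times those of Chat in libraries labelled TAAR5-KO and 0.300 to 0.536 times in libraries labelled WT. The range with the label WT lay inside the wider range with the label TAAR5-KO. The mean log2 ratio (0.5 added to each count) was −2.06 ± 0.978 and −1.18 ± 0.261 (SD, n = 6 each), a difference of −0.88 (two-sided exact permutation test, p = 0.0584, adjusted over 7 ratios p = 0.409). Without NK3 the difference was −1.22 and passed (adjusted exact p = 0.0303), whereas over all alternatives the adjusted p ran from 0.0303 to 0.636. The other 3 ratios to Chat, those of Slc5a7, Lhx8 and Ache, were 0.29, 0.25 and 0.13 higher on the log2 scale in libraries labelled TAAR5-KO, with adjusted exact p from 0.561 to 0.576.

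Slc5a7 encodes the high-affinity choline transporter. Its level was 2.27, 4.67 and 6.66 CPM (lowest, median, highest) in libraries labelled TAAR5-KO and 2.59, 4.75 and 6.78 CPM in libraries labelled WT. The 2 ranges nearly coincided, and within each label the level varied more than 2-fold between libraries. On the log2 scale the difference was 0.0062 (SE 0.25, adjusted p = 0.994), and its 95% interval, −0.48 to 0.49, leaves room for a moderate difference in either direction.

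Ache, the gene of acetylcholinesterase, had 3.57, 4.52 and 7.38 CPM in libraries labelled TAAR5-KO and 4.52, 5.04 and 6.56 CPM in libraries labelled WT. Both the lowest value (NK6) and the highest (NK5) carried the label TAAR5-KO. The log2 fold change was −0.12 (SE 0.17, 95% interval −0.46 to 0.23, adjusted p = 0.858). Of the bases counted for Ache, 98 also lie in exons of Gm42456 on the other strand, and whether the counting used strand is not given in the sources used here.

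Lhx8 encodes a LIM homeobox factor that is needed for cholinergic neurons of the forebrain to form. It had 0.261, 0.726 and 1.24 CPM in libraries labelled TAAR5-KO and 0.277, 0.674 and 1.08 CPM in libraries labelled WT. The values spread widely within both labels, on 4 to 23 counts per library. The log2 fold change was 0.053 (SE 0.38, 95% interval −0.70 to 0.80, adjusted p = 0.976), the second widest interval of the 10 after that of Slc18a3.

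Among the muscarinic receptors, Chrm1 and Chrm3 encode the Gq-coupled members measured here. Chrm1 had 7.37, 9.15 and 10.8 CPM in libraries labelled TAAR5-KO and 5.58, 9.29 and 11.4 CPM in libraries labelled WT, with a log2 fold change of −0.066 (SE 0.15, 95% interval −0.36 to 0.23, adjusted p = 0.918). The libraries labelled TAAR5-KO lay inside the range of the others. Chrm3 had 2.04, 4.38 and 5.82 CPM and 2.88, 3.70 and 4.48 CPM in the same order, with a log2 fold change of 0.16 (SE 0.21, 95% interval −0.25 to 0.57, adjusted p = 0.830). Here the libraries labelled WT lay inside the range of those labelled TAAR5-KO, whose lowest value was that of NK4 and whose highest was that of NK6. The misc_RNA feature Gm54900 shares 329 exonic bases with Chrm1 on the other strand.

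Chrm2 and Chrm4 encode the receptors that couple to Gi and Go proteins, of which the first is known as an autoreceptor of cholinergic terminals and the second is prominent in spiny neurons of the direct pathway. Chrm2 had 2.73, 4.86 and 6.04 CPM in libraries labelled TAAR5-KO and 4.46, 4.84 and 5.82 CPM in libraries labelled WT (log2 fold change −0.092, SE 0.17, 95% interval −0.42 to 0.23, adjusted p = 0.887). Its spread was larger with the label TAAR5-KO (SD 1.38 CPM) than with the label WT (SD 0.488 CPM), a difference that was not tested. Chrm4 had 2.19, 2.44 and 2.66 CPM and 1.53, 2.27 and 3.12 CPM in the same order, with a log2 fold change of −0.0050 (SE 0.17, 95% interval −0.33 to 0.32, adjusted p = 0.994). All 6 libraries labelled TAAR5-KO lay between the lowest (NK9) and the highest (NK12) library labelled WT. Chrm2 shares 142 exonic bases with 9330158H04Rik on the other strand.

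Chrnb2 encodes the nicotinic beta subunit that pairs with the Chrna4 product in the most common brain receptor. It had 3.24, 4.52 and 5.28 CPM in libraries labelled TAAR5-KO and 3.42, 4.42 and 4.86 CPM in libraries labelled WT. It was the steadiest of the 10 genes across the 12 libraries, with a coefficient of variation of 12.96%, and had the narrowest interval. The log2 fold change was 0.039 (SE 0.13, 95% interval −0.21 to 0.29, adjusted p = 0.944). Of its 8380 counted bases, 1365 also lie in exons of Adar on the other strand, so its level is uncertain.

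**Figure D2:**
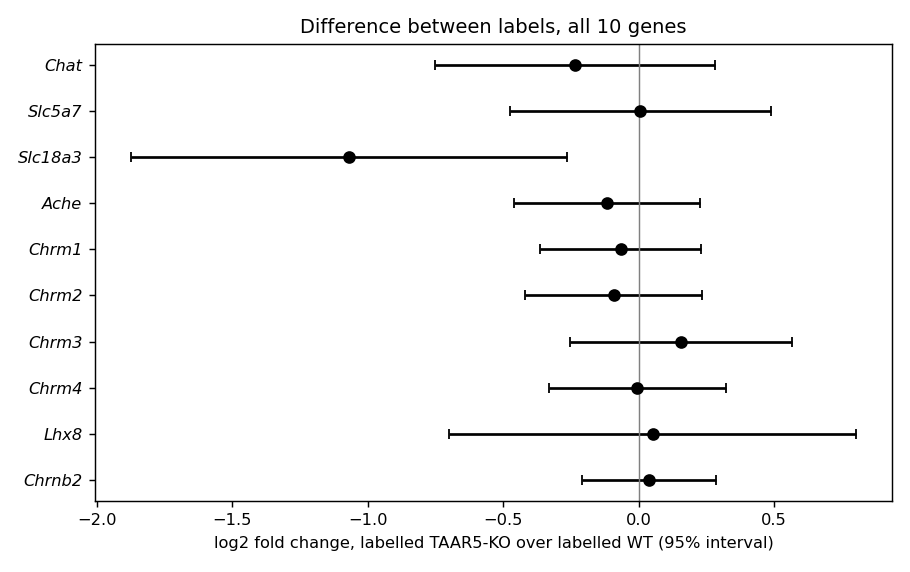
Log2 fold change of libraries labelled TAAR5-KO over libraries labelled WT (horizontal axis) for the 10 genes, from the likelihood ratio fit with 6 libraries per label. Points are estimates and bars 95% intervals. Only the interval of Slc18a3, −1.87 to −0.27, leaves out 0, and its adjusted p was 0.194.

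Within the muscarinic family, none of the 3 ratios between receptors passed the test between the labels. The log2 count ratios of Chrm4, Chrm3 and Chrm2 to Chrm1 differed by 0.11, 0.13 and −0.14, with adjusted exact p from 0.576 to 0.593. As shares of the 4 receptors' summed CPM per kilobase of counted exons, Chrm4 took 37.9% ± 5.79 and 36.1% ± 4.497 in libraries labelled TAAR5-KO and WT (SD, n = 6 each), and Chrm1 took 30.5% ± 2.33 and 31.5% ± 2.90. Chrm2 took 17.0% ± 4.84 and 19.0% ± 3.896, and Chrm3 took 14.5% ± 3.72 and 13.4% ± 1.57. The order of the 4 mean shares was the same in both labels.

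Over all 12 libraries, the level per kilobase was highest for Chrm4 and Chrm1 and lowest for Slc18a3. Chrm4 had 1.65 ± 0.292 CPM per kilobase, Chrm1 1.39 ± 0.278 and Ache 1.11 ± 0.258 (SD, n = 12 here and in the rest of the order). Slc5a7 followed with 0.822 ± 0.268, Chrm2 with 0.791 ± 0.166, Chrm3 with 0.628 ± 0.174 and Chrnb2 with 0.522 ± 0.0676. Lhx8 (0.274 ± 0.129), Chat (0.237 ± 0.0799) and Slc18a3 (0.165 ± 0.103) closed the order. The order that set the neighbours came from the same values that were tested. Of the 9 steps between neighbours, 5 were separated, as their mean log2 size over the 12 libraries differed from 0 (two-sided exact sign-flip permutation test over 4096 flips, adjusted p under 0.05). They were Chrm4 over Chrm1, higher in 11 of 12 libraries (adjusted exact p = 0.0103), Ache over Slc5a7 (11 of 12, 0.00659), Chrm2 over Chrm3 (10 of 12, 0.0316), Chrnb2 over Lhx8 (12 of 12, 0.00439) and Chat over Slc18a3 (9 of 12, 0.0316). Chrm1 and Ache, Slc5a7 and Chrm2, Chrm3 and Chrnb2, and Lhx8 and Chat were not separated (adjusted exact p from 0.107 to 0.961). The number of separated steps was 3 without NK1, NK5, NK10 or NK11, and at most 6 without any other library. The first place of Chrm4 rests on a counted length of 1440 bases, equal to its coding length, whereas 820 to 6196 counted bases lie beyond the coding sequence in the other 9 genes.

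**Figure D3:**
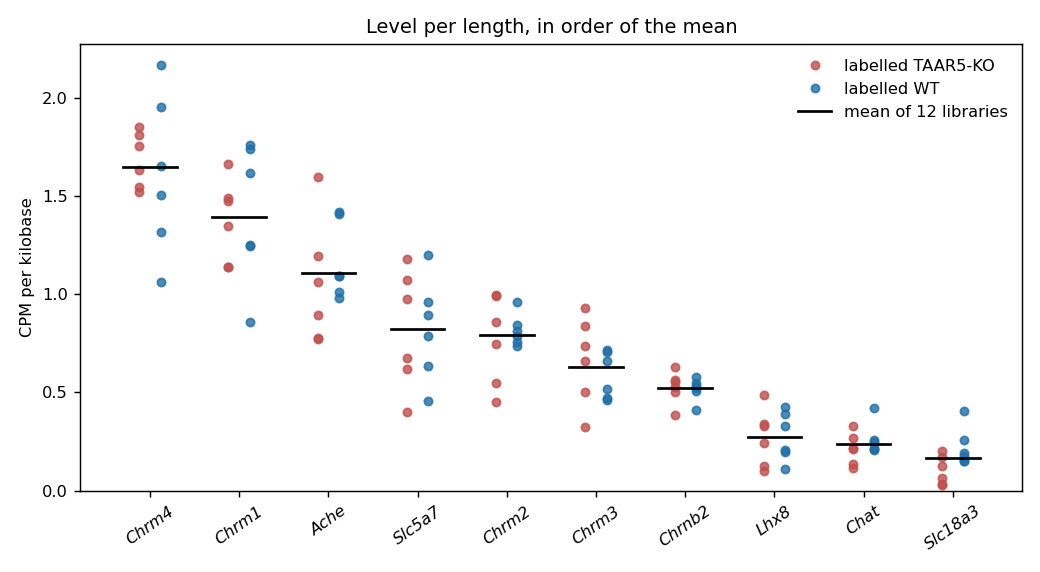
Level per length, in CPM per kilobase of counted exons (vertical axis, from 0), of the 10 genes in order of their mean. Points are libraries labelled TAAR5-KO (red) or WT (blue) and the horizontal lines are means over the 12 libraries, from 1.65 for Chrm4 down to 0.165 for Slc18a3.

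Chat went with Lhx8 and Slc5a7 from library to library and, on the TMM scale, against Chrm1 and Chrm3. Over the 12 libraries, 4 of the 45 pairs of genes passed by Pearson's r on log2 CPM (100000 permutations, adjusted p under 0.05), and 6 passed by Spearman's rho. Of the positive pairs, Chat with Lhx8 had the highest r (r = 0.79, permutation p = 0.00180, adjusted p = 0.0399; rho = 0.82, permutation p = 0.00206), and r was 0.74 without the 2 libraries farthest from the median of Chat. Within the labels, r of this pair was 0.98 (TAAR5-KO, n = 6) and 0.57 (WT, n = 6), values that were not tested. Slc18a3 did not pass with Chat (r = 0.56, and −0.030 without the 2 farthest libraries), Slc5a7 (0.34) or Lhx8 (0.23).

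Chat also went with Slc5a7 (r = 0.75, permutation p = 0.00439, adjusted p = 0.0494; rho = 0.73, permutation p = 0.00962), but r was 0.51 without the 2 farthest libraries, so this relation leans on them. By rho alone, with adjusted permutation p from 0.0309 to 0.0460, Chat with Ache (rho = 0.83), Ache with Chrm3 (rho = −0.76) and Slc5a7 with Chrm3 (rho = −0.80) passed in addition, while Chat with Slc5a7 did not (adjusted permutation p = 0.0550).

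The receptors Chrm3 and Chrm1 ran opposite to Chat. For Chrm3, r was −0.80 (permutation p = 0.00145, adjusted p = 0.0399; rho = −0.83, permutation p = 0.00135), and it was −0.80 again without the 2 farthest libraries. For Chrm1, r was −0.78 (permutation p = 0.00266, adjusted p = 0.0399; rho = −0.76, permutation p = 0.00613), and −0.61 without those libraries. Within the labels, where r was not tested, both signs were the same, with r = −0.85 and −0.73 for Chrm3 and −0.91 and −0.95 for Chrm1 (TAAR5-KO and WT, n = 6 each). With library size, which includes ribosomal RNA, as the only scaling, r turned to 0.65 for Chrm3 and 0.77 for Chrm1, and 43 of the 45 pairs passed. Leaving out 1 library at a time gave 0 passing pairs without NK3, NK5, NK6 or NK10, 2 without NK9, 8 without NK1 or NK8 and 9 without NK2 or NK4, while r of Chat with Chrm3 stayed between −0.84 and −0.74. Chrm2, Chrm4, Slc18a3 and Chrnb2 were in none of the pairs that passed by r or by rho.

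**Figure D4:**
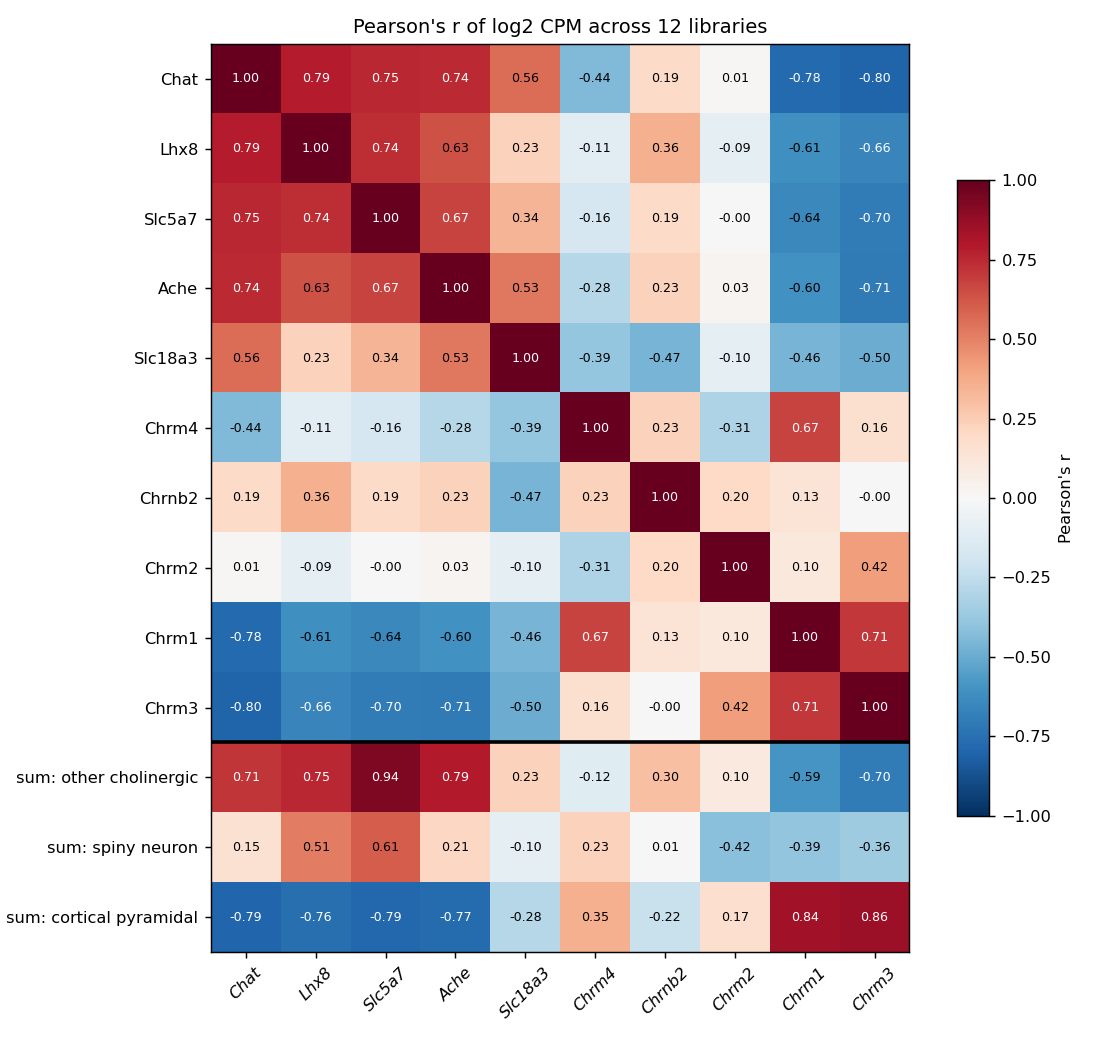
Pearson's r of log2 CPM across the 12 libraries, from −1 (blue) to 1 (red), between the 10 genes (upper rows) and between each gene and the summed CPM of 3 marker lists (lower rows). Chat, Lhx8, Slc5a7 and Ache have positive values with each other, from 0.63 to 0.79, and negative ones with Chrm1 and Chrm3, from −0.80 to −0.60, on the TMM scale, while with library size only r of Chat with both was positive (0.77 and 0.65).

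Markers of other cells moved with this pattern. Although the cortex had been removed, all 6 markers of cortical pyramidal neurons, Slc17a7, Tbr1, Neurod6, Neurod2, Cux2 and Rorb, were counted, and none was at 0 throughout. By label, their summed CPM had a median of 91.7 (50.6 to 120.9) with TAAR5-KO and of 84.4 (52.5 to 129.5) with WT, so it varied more than 2-fold within each label while the labels overlapped. Slc17a7, the vesicular glutamate transporter gene of cortical neurons, had 28.5 ± 13.4 and 32.3 ± 13.9 CPM (SD, n = 6 each).

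After these values had been seen, each of the 10 genes was related to the sums of the cortical, spiny neuron and other cholinergic lists and to the ribosomal RNA share, 40 relations in all, of which 11 passed by r and 8 by rho (permutation, adjusted p under 0.05). The cortical sum rose with Chrm3 (r = 0.86, permutation p = 0.000290, adjusted p = 0.00580; rho = 0.83, permutation p = 0.00151) and Chrm1 (r = 0.84, permutation p = 0.000580, adjusted p = 0.00670; rho = 0.85, permutation p = 0.000930). It ran opposite to Chat (r = −0.79, permutation p = 0.000670, adjusted p = 0.00670; rho = −0.80, permutation p = 0.00322), Slc5a7 (r = −0.79), Ache (r = −0.77) and Lhx8 (r = −0.76), the last 3 with adjusted permutation p from 0.0201 to 0.0282. Without the 2 libraries farthest from the median of the sum, r was 0.79 for Chrm3, 0.79 for Chrm1, −0.64 for Chat, −0.75 for Slc5a7, −0.76 for Ache and −0.64 for Lhx8. Within the labels, where r was not tested, the signs were the same for all 6 genes.

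The opposite sign depended on the scaling. Library size includes the ribosomal RNA features, which took 64.3% to 88.1% of the counts. Scaling by it alone also moved the median log2 fold change over all features tested to −0.49. With library size only, r of the cortical sum was 0.65 for Chat, 0.61 for Slc5a7, 0.76 for Ache and 0.46 for Lhx8, whereas it stayed positive for Chrm3 (0.98) and Chrm1 (0.97). The number of passing relations was then 38. On the TMM scale it was 5 without NK6 and 6 without NK3, while all 11 relations kept their sign without any 1 library. For the cortical sum, Ache no longer passed without NK3 or NK6 (adjusted permutation p = 0.0513 and 0.0531), nor did Lhx8 without NK3, NK4, NK6 or NK11 (0.0540 to 0.0791). The ribosomal RNA share passed with 0 of the 10 genes. The part of cortical tissue in the levels of the 10 genes was not tested.

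**Figure D5:**
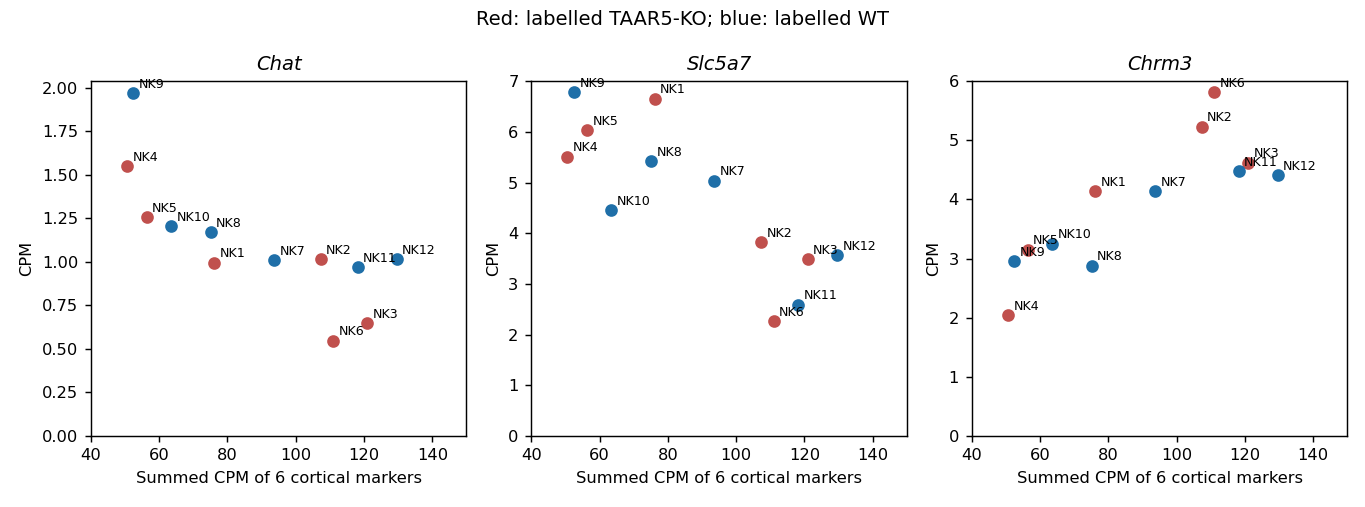
CPM of Chat, Slc5a7 and Chrm3 (vertical axes, from 0) against the summed CPM of 6 cortical pyramidal neuron markers (horizontal axis) in the 12 libraries, labelled TAAR5-KO (red) or WT (blue). Chat and Slc5a7 decline to the right (r of log2 values −0.79 for both) and Chrm3 climbs (0.86), with both labels spread along the same course, while with library size only the values for Chat and Slc5a7 were 0.65 and 0.61.

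The summed level of other markers of cholinergic neurons was set against each of the 10 genes. This sum, that of Isl1, Gbx1, Gbx2, Nkx2-1, Lhx6, Ngfr, Slc10a4, Slc17a8, Tacr1 and Ecel1, ran from 9.39 to 20.3 CPM with the label TAAR5-KO and from 10.2 to 17.2 CPM with the label WT. Its largest term was Lhx6 (4.41 ± 1.87 and 4.36 ± 1.11 CPM, SD, n = 6 each), which GABA interneurons also express. Its r was 0.94 with Slc5a7 (permutation p = 4.0e-05, adjusted p = 0.00160; rho = 0.88, permutation p = 0.000340) and 0.88 without the 2 farthest libraries. It was 0.79 with Ache, 0.75 with Lhx8, 0.71 with Chat and −0.70 with Chrm3, with adjusted permutation p from 0.0181 to 0.0455, and Slc18a3 did not pass (r = 0.23). Slc5a7 passed without each library in turn, whereas Ache and Chat did not pass without NK6, Chat and Lhx8 not without NK3, Lhx8 not without NK6 or NK11, and Chrm3 passed only without NK1 or NK4 (adjusted permutation p up to 0.169). With library size only, the value for Chrm3 turned to 0.74 and the others stayed positive. Of these 10 markers, Gbx2 did not pass the filter on low values and 0 of the other 9 were called. Slc17a8, the vesicular glutamate transporter of cholinergic interneurons, had the smallest unadjusted p, with 1.60 ± 0.621 and 0.945 ± 0.322 CPM (log2 fold change 0.70, SE 0.31, adjusted p = 0.324). Of the 9, 6 were on the higher and 3 on the lower side. The largest change in size was that of Ngfr, a lower one (−0.89, SE 0.43, likelihood ratio test, adjusted p = 0.384). In the same test, Slc17a8 was called without NK6 (adjusted p = 0.0976) and Ecel1, on the lower side, without NK5 (−0.76, adjusted p = 0.0193).

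Among all genes with a mean of at least 5 CPM, 4605 features, those most like Chat across the 12 libraries were Six3 (r = 0.93), Zcchc12 (0.88), Impact (0.88), Rprd1b (0.87) and Rps12 (0.87). Those most like Chrm4 were Ythdf1 (0.88), Kctd17 (0.87), Arid1a (0.85), Crtc1 (0.84) and Kif3b (0.83). These values are a description, chosen as the highest of 4605, over points that share their libraries and scaling.

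The rest of the pathway was compared through lists of 115 genes, of which 95 were tested and 1, an astrocyte gene, was called (1.05%, against 1.65% of all features tested). Of the 16 other acetylcholine receptor genes, 13 had too few counts to be tested, and 0 of the other 3 were called. Chrna4, the alpha partner of Chrnb2, had 2.36 ± 0.522 and 2.93 ± 0.599 CPM in libraries labelled TAAR5-KO and WT (SD, n = 6 each; log2 fold change −0.35, SE 0.17, adjusted p = 0.400). Among 9 tested genes of choline supply and acetylcholine breakdown, 5 were on the higher and 4 on the lower side with 0 called, and Pcyt1a, an enzyme that draws choline into phosphatidylcholine, had 3.02 ± 0.450 and 3.82 ± 0.334 CPM (log2 fold change −0.36, SE 0.13, adjusted p = 0.176).

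The chaperones and prototoxins of nicotinic receptors had 0 of 9 called, 8 of them on the lower side. The median log2 fold change of this list was −0.12 (−0.059, with 6 of 9 lower, without NK6), and Lypd6b had the smallest unadjusted p (log2 fold change −0.36, SE 0.23, adjusted p = 0.548). The 17 genes of muscarinic transduction, which cover G proteins, phospholipases, RGS proteins and the potassium channels that muscarinic receptors act on, had 0 called and a median of 0.084, which moved between 0.0086 (without NK9) and 0.12 (without NK4). Gnai2, a Gi alpha subunit, had 15.2 ± 1.78 and 18.1 ± 0.934 CPM (log2 fold change −0.26, SE 0.089, adjusted p = 0.134). DESeq2 called this gene (adjusted p = 0.0990) and Rgs4 (0.35 on the log2 scale, adjusted p = 0.0945), a brake on Gq and Gi signalling that the likelihood ratio test did not call (0.34, SE 0.12, adjusted p = 0.152).

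Of the cells around the cholinergic interneuron, the 8 spiny neuron markers were all on the higher side in libraries labelled TAAR5-KO, with a median of 0.28 and 0 called. Without NK11, 7 of 8 were higher and the median was 0.15, and with library size only all 8 were lower, with a median of −0.23 beside −0.49 over all features. Drd1, the dopamine receptor of the direct pathway, had 16.1 ± 2.50 and 12.0 ± 2.80 CPM (log2 fold change 0.44, SE 0.15, adjusted p = 0.140). The 8 markers of GABA interneurons had 0 called, and Calb2 had the smallest unadjusted p (−0.79, SE 0.34, adjusted p = 0.306). Astrocyte markers were all 6 on the lower side (median −0.29), and Gja1, a gap junction gene, fell by 0.41 on the log2 scale (SE 0.12, adjusted p = 0.0568, from 41.3 ± 3.27 to 31.0 ± 5.89 CPM), although the quasi-likelihood test did not call it (adjusted p = 0.144). The call was also lost with no filter, with library size only and without NK1, NK2, NK3, NK7, NK8, NK11 or NK12. It held in the other fits, among them DESeq2 (adjusted p = 0.0284) and the likelihood ratio test with the GC trend removed (0.0421). Without NK4, NK5, NK6, NK9 or NK10, the adjusted p of that test was 0.00953 to 0.0621.

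The remaining lists had 0 called. The smallest unadjusted p belonged to Mbp among 6 oligodendrocyte markers (log2 fold change −0.30, SE 0.12, adjusted p = 0.221), which DESeq2 called (adjusted p = 0.0945). It belonged to Neurod6 among 6 cortical markers (0.32, SE 0.33, adjusted p = 0.770) and to Zic2 among 5 tested septal markers (−0.23, SE 0.24, adjusted p = 0.763). Cldn5 among 5 endothelial markers (−0.33, SE 0.35, adjusted p = 0.766) and Folr1 among 5 tested markers of choroid plexus and ependyma (−0.81, SE 0.85, adjusted p = 0.770) complete the set. The summed CPM of the choroid plexus and ependyma list ran from 2.14 to 459.1 over the libraries labelled TAAR5-KO, the widest range of these lists in that label.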

How the data were processed

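RNA of striatum was sequenced in 6 libraries labelled TAAR5-KO and 6 labelled WT. The authors trimmed single-end reads with cutadapt 4.1, used STAR 2.7.11b for alignment to GRCm39, and used featureCounts 2.0.6 for counting. The deposited values are raw whole-number counts per gene, beside each gene's counted length. Whether strand was used, and how reads with several matches were handled, is not given in the sources used here. Counts in 12 other columns were left out. Everything after the counts was computed anew, in edgeR 4.0.16 with TMM, a CPM of at least 0.5 on total counts in at least 3 libraries, glmFit and glmLRT without covariates and Benjamini–Hochberg adjustment over 13902 features at 0.1. Total counts were 11.3 to 34.8 M per library, but the 1.82 to 6.40 M counts outside ribosomal RNA limit the precision. Lhx6 was named after its values were seen.

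Alternatives were the quasi-likelihood test, DESeq2 1.42.0, library size only, RLE factors, filterByExpr, no filter, the CPM filter on TMM sizes, a threshold of 0.05, removed length or GC trends, removed ribosomal RNA features, another pseudocount or prior count, unlogged levels, and leaving out each library. Added after seeing the data were the relations with list sums and the start regions. Ratios and levels had exact permutation tests, and correlations used 100000 permutations of log2 CPM (prior count 2). The fit was tested on simulated data. Exon positions and coding lengths came from GENCODE M39. The text names all 10 genes, every called gene of each list or else the gene with the smallest unadjusted p, and 5 features most like Chat and like Chrm4. Rgs4 and Slc17a7, and the changes of Ngfr and Ecel1, were named after their values were seen. The genes, lists and tests were chosen with earlier results of these data known. Of the marker lists, 2 genes are not reported here and were left out of the sums.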

Additional observations from a re-analysis of the deposited data

Results flagged for a closer look

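The level of Chat in NK9, labelled WT, was 1.97 CPM, with a gap to the nearest of the other 5 libraries of that label of 0.765 of the range, above Dixon's 95% limit for 6 libraries. Chance flags about 1 in 20 such groups, and 20 were examined.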

How the results depend on the processing

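No paired analysis was possible because the columns carry no replicate number of the labels. The number of the 10 genes called was 0 in every alternative fit except that without NK5 (range 0 to 1). However, filterByExpr and the CPM filter on TMM sizes left Slc18a3 untested, and DESeq2 gave no adjusted p for Slc18a3, Chat, Chrm4 or Lhx8. Ratios passing ranged from 0 to 1, separated steps in the order of levels from 3 to 6, correlated pairs from 0 to 9 and relations with list sums from 5 to 11 when each library was left out. With library size only, which moved the median over all features tested to −0.49 on the log2 scale, correlated pairs were 43, relations with list sums were 38, and the log2 fold change was −0.45 for Slc5a7, −0.43 for Chrm3, −0.41 for Lhx8 and −0.47 for Chrnb2. Under that scaling r was 0.65 for Chat with Chrm3, 0.77 for Chat with Chrm1, 0.74 for Chrm3 with the cholinergic sum, and 0.65, 0.61, 0.76 and 0.46 for Chat, Slc5a7, Ache and Lhx8 with the cortical sum. Signs near 0 also turned. Slc5a7 was at −0.0082 with no filter, −0.11 with the GC trend removed and −0.0018 without ribosomal RNA features. Chrm1 was at 0.021 with the GC trend removed. Chrm4 was at 0.0022 with the quasi-likelihood test, 0.00014 with RLE factors, 0.037 and 0.11 with the length or GC trend removed and 0.010 with DESeq2. Leaving out each library gave −0.12 to 0.17 for Slc5a7, −0.15 to 0.0061 for Chrm1, −0.19 to 0.021 for Chrm2, −0.080 to 0.11 for Chrm4, −0.20 to 0.31 for Lhx8 and −0.028 to 0.11 for Chrnb2. Of the list genes, 0 were called with the quasi-likelihood test, library size only, no filter or a threshold of 0.05, 5 with DESeq2 and 0 to 6 when each library was left out, with 6 without NK4 and 4 without NK5. The cause of these shifts was not tested. Few counts limit Slc18a3, Lhx8 and Chat most.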
